A study of Mus musculus with 6 samples.

Results

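The insulin-like growth factor (IGF) axis was followed through 10 of the 19057 genes named on the array. These were the ligands Igf1 and Igf2, the receptors Igf1r, Igf2r and Insr, the adaptor Irs1, and the binding proteins Igfbp2, Igfbp3, Igfbp4 and Igfbp5. The members were selected on the intensities of the Igfbp5 probes, which were bright and lower in the mutant, so the Igfbp5 contrast is a description, and no p is given for it. The platform annotation assigned 22 probes to these genes. Of these, 15 probes from 8 genes were above background on all 3 arrays of at least 1 genotype and were tested, and 7 were not. Igf1 and Igfbp3 had no tested probe.

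Lens placode of wild-type (WT) mouse embryos was compared with surface ectoderm of CBP/p300-/- embryos (KO), all at embryonic day 9.5 (E9.5) and of mixed FVB and 129 background. CBP and p300 are lysine acetyltransferases and transcriptional coactivators, and the question was which transcripts depend on them as the placode forms. Tissue of 3 embryos was laser microdissected, its RNA was pooled within a genotype, and 3 amplifications of each pool were hybridised to 1 Illumina MouseWG-6 v2 array each. The labels thus make the arrays technical replicates of 1 pool per genotype, where p-values cover only amplification spread and every test sets 1 pool against another. The tissue label changes together with the genotype, and these cannot be told apart. The study describes conditional mutants in which Cre deletes both genes in the presumptive lens ectoderm, among other places where it is active. For embryos a day older it names Pax6-Cre, with Cre-negative carriers of the floxed alleles as controls, and calls its arrays biological replicates. The Cre line of the embryos labelled E9.5 was not given in the sources used here.

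Igf1 and Igf2 are secreted growth factors that signal through the receptor tyrosine kinase Igf1r and, with Insr, through insulin receptor forms, and Irs1 carries the signal on to PI3K and Akt. Igf2r binds Igf2 and delivers it to lysosomes. The binding proteins hold IGFs outside the cell and either withhold them from receptors or release them when cut by proteases, and Igfbp5 also binds the extracellular matrix. IGF signalling is known to promote growth and differentiation of lens cells.

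The 250 bases upstream of the annotated starts of Igfbp5 and Igfbp4 are shown because these genes had the lowest and the highest fold change among the tested members. Both sequences are from RefSeq (GRCm38.p6), read 5′ to 3′ along the strand of the gene. Capitals mark matches to motifs that were chosen after expression values were known. These were the AP-2 motif GCCNNNGGC, the TATA box TATAAA and its variant TATTTAA. The AP-1 motif (TGANTCA) and the CREB core (TGACG) were searched too and had no match in either window.
Igfbp5, chr1:72874866-72875115, minus strand: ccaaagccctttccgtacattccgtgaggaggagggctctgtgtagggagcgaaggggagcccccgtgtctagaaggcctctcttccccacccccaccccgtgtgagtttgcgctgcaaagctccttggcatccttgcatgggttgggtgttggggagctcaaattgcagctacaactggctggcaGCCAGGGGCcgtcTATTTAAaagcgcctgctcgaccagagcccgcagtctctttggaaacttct
Igfbp4, chr11:99040994-99041243, plus strand: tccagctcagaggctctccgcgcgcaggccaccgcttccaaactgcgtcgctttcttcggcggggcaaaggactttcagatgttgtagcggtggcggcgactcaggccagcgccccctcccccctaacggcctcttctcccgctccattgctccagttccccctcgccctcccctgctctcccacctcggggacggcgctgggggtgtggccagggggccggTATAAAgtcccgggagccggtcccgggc
The Igfbp5 window held an AP-2 match at bases -64 to -56 and TATTTAA at -51 to -45, counted from -1 at the last base before the start. The Igfbp4 window held TATAAA at -28 to -23. The Igfbp4 locus as annotated begins upstream of its window. Both strands were searched, and no matches overlapped. Of 32851 upstream windows of the same length, 13.7% held the AP-2 motif, 12.4% the TATA box, 4.18% its variant, 17.8% the CREB core and 6.75% the AP-1 motif. Such matches are a description of letters and not of bound sites.

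At a detection p-value under 0.01, an array had 12212 to 17195 of its 45281 probes above background, and 12697 probes of 7141 genes were tested. Correlations across tested probes, a description only, ran from 0.772 to 0.790 within WT, from 0.846 to 0.856 within KO and from 0.733 to 0.776 across genotypes. Levels below are log2 intensities after background correction and quantile normalization. Fold changes are KO minus WT on that scale with the standard error (SE) of limma. A probe was called at a Benjamini-Hochberg adjusted p under 0.05 over all tested probes with a log2 fold change of at least 1 in either direction. Over the whole array 0.425% of tested probes were called lower in KO and 0.417% higher, 54 and 53 probes. Under median scaling that split was 29 and 63, and with the deposited processed values it was 68 and 102. With any 1 array left out, 0 probes were called lower and 0 to 1 higher. The median change of all tested probes was 0.05. Probes differ in their response, so no level is compared between genes.

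Igfbp5 was the member with the lowest fold change, and its 3 probes gave nearly the same picture. Probe ILMN_2682613 read 12.25, 12.43 and 12.19 on WT arrays 1 to 3 and 9.24, 8.92 and 9.46 on KO arrays 1 to 3, a log2 fold change of -3.09. For ILMN_1254358 the WT arrays gave 11.54, 11.81 and 12.02 and the KO arrays 8.95, 8.44 and 8.96 (-3.0). ILMN_2964324 gave 10.54, 10.52 and 10.67 in WT and 7.73, 8.03 and 7.70 in KO (-2.76). On each probe every KO array lay below every WT array, and the lowest WT value exceeded the highest KO value by 2.49 to 2.73. Averaged over the 3 probes, Igfbp5 stood at 11.55 ± 0.094 in WT and 8.60 ± 0.125 in KO (SD, n = 3 arrays), a difference of -2.95 or 7.72-fold. The single probes gave 6.76-fold to 8.49-fold.

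The Igfbp5 transcript was still well measured in KO. All 3 probes were above background on all 6 arrays, with scanner intensities of 1504 to 5407 in WT and 298 to 780 in KO. Each reading came from 31 to 56 beads, and the bead standard error was 1.79% to 3.80% of the signal. Of the 12697 tested probes, 31 to 57 had a lower fold change than an Igfbp5 probe. These 3 were the only member probes called lower in KO, where the background was 0.425%. Nothing is read from that rank or count, because the same contrast chose the set, and the study listed Igfbp5 among its decreased genes. With any 1 of the 6 arrays left out, 0 of the 3 probes were called, while the mean fold change stayed between -3.02 and -2.88. In such bulk tissue, fewer cells that express a gene and less RNA per cell cannot be told apart.

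**Figure D1:**
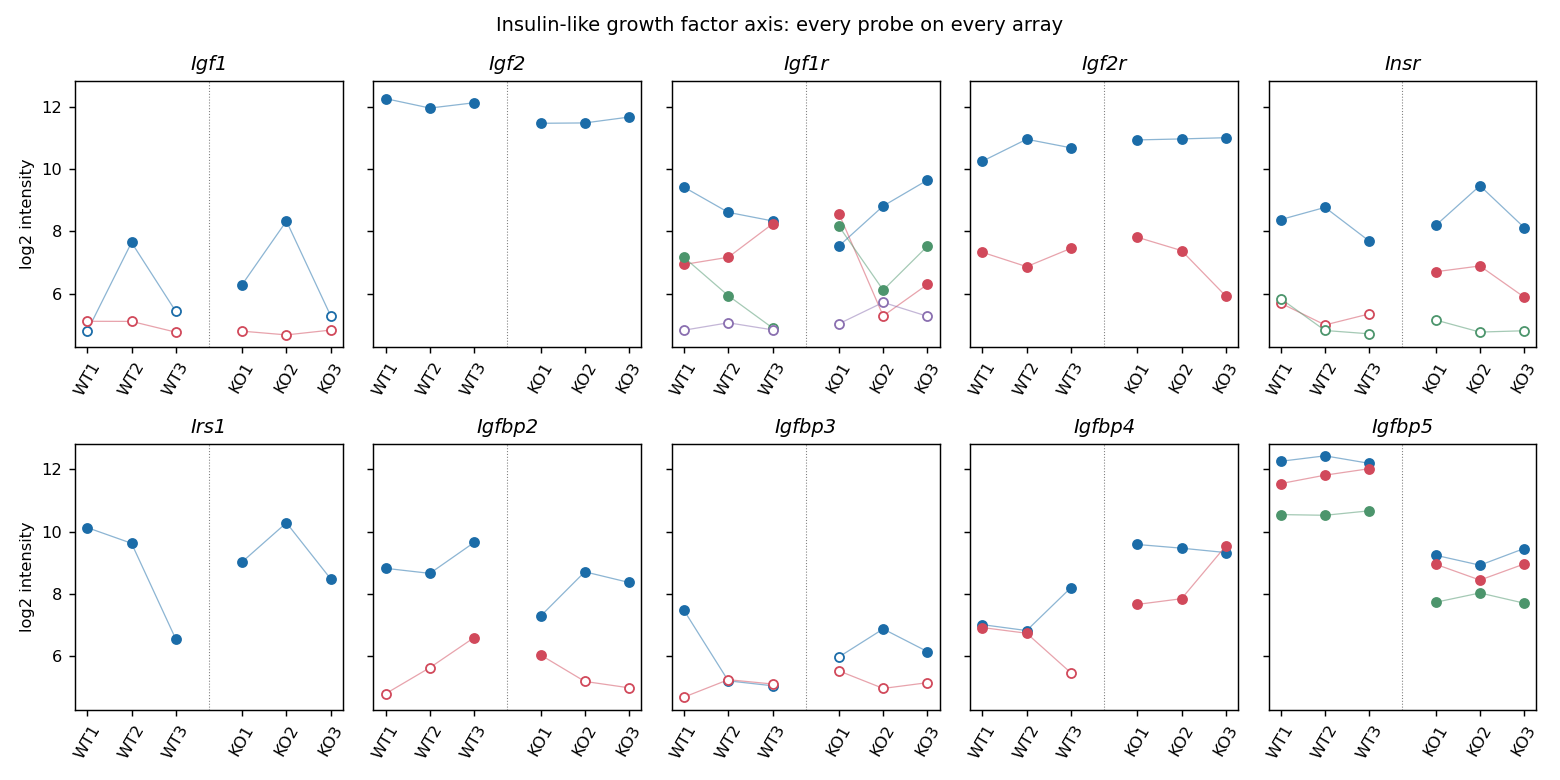
Log2 intensity (y axis) of all 22 probes of the 10 genes on WT arrays 1 to 3 and KO arrays 1 to 3 (x axis). Each colour is 1 probe, filled circles are above background and open circles are not. The 3 Igfbp5 probes lay between 10.52 and 12.43 in WT and between 7.70 and 9.46 in KO, and each Igfbp4 probe was higher on every KO array than on any WT array.

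Among the other 9 genes, 12 probes from 7 genes were tested, and 0 of them were called by limma, with adjusted p from 0.0898 to 0.953. So few probes give about that count at the shares of the whole array, 0.425% lower and 0.417% higher. At an unadjusted p under 0.05 there were 3, against 6.61% of all tested probes lower and 8.58% higher. Fold changes ranged from -0.92 to 2.11 with a median of 0.33, and 5 were below zero and 7 above, where 47% of all tested probes were below zero. The genotypes did not overlap on 4 of the 12 probes (33.3%), against 21.6% of all tested probes. KO was lower on 1 of these (8.33%, against 10.2% of all tested probes) and higher on 3 (25%, against 11.3%). Nothing is read from these counts, since 2 of the 3 higher probes, the dimmer probes of Igfbp4 and Insr, passed the filter only through the KO arrays. Over all 12 probes, 3 passed only through KO and 1 only through WT.

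Of the ligands, Igf2 was measured on every array and Igf1 on few. Igf2, a fetal growth factor expressed from the paternal allele, read 12.25, 11.95 and 12.12 in WT and 11.46, 11.47 and 11.66 in KO. All KO arrays were below all WT arrays, but the difference of -0.58 ± 0.25 (SE) did not pass the test (limma, adjusted p = 0.347). Its 95% interval ran from -1.18 to 0.025. Igf1, the main mediator of growth hormone after birth, read 4.80, 7.64 and 5.43 in WT and 6.29, 8.32 and 5.28 in KO on its brighter probe. That probe was above background on 1 WT and 2 KO arrays, and the other Igf1 probe on none. No difference in Igf1 was detectable at these signals.

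The receptors overlapped between the genotypes on their brightest probes. Igf1r, the receptor of both ligands, read 9.41, 8.60 and 8.33 in WT and 7.52, 8.81 and 9.64 in KO, a difference of -0.12 ± 0.61 (SE, limma adjusted p = 0.953). Its 95% interval, -1.60 to 1.35, left room for a change in either direction. KO array 1 was the lowest of the 6 and KO array 3 the highest. The sign turned to 0.19 without WT replicate 1 and to 0.45 without KO replicate 1. Its dimmer tested probes disagreed in sign, at -0.73 (adjusted p = 0.773) and 1.27 (adjusted p = 0.507). The first passed the filter only through WT and the second only through KO, so each sign leans on the filter. The fourth probe was on no array above background.

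Igf2r is the scavenger of Igf2 and is expressed from the maternal allele in mouse. Its brightest probe read 10.25, 10.95 and 10.68 in WT and 10.93, 10.96 and 11.00 in KO. The KO arrays agreed closely and 1 WT array was lower, giving 0.34 ± 0.28 (SE) with an adjusted p of 0.661 by limma and an interval of -0.35 to 1.03. The second probe gave -0.18 (adjusted p = 0.924). Igf2r, like Igfbp5, was on that list of decreased genes.

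Insr encodes the insulin receptor. WT arrays gave 8.37, 8.76 and 7.68 and KO arrays 8.18, 9.46 and 8.12 on its brightest probe, a difference of 0.31 ± 0.49 (SE, limma adjusted p = 0.836) that became -0.12 without KO replicate 2. A dimmer probe read 5.69, 4.99 and 5.35 in WT, above background on no array, and 6.70, 6.88 and 5.88 in KO, above background on all 3. The mean KO signal was at least 1.25-fold higher, but the probe was not called (limma adjusted p = 0.233). Such a bound sets the brighter genotype's mean against the dimmest signal above background, or the dim probe's own signal where that was higher. Here and below it compares means under the main processing and does not cover the spread between arrays. The Insr probes thus gave no called difference, and the remaining probe was above background on no array.

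Irs1 docks to the activated receptors and recruits PI3K. Its single probe varied more within WT than any other brightest member probe, at 10.13, 9.62 and 6.55, and read 9.03, 10.28 and 8.48 in KO. The difference of 0.50 ± 1.03 (SE) had a limma adjusted p of 0.881 and an interval of -2.0 to 2.99. Leaving out WT replicate 3, the low array, turned it to -0.60, and leaving out KO replicate 2 to -0.01.

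Among the binding proteins beside Igfbp5, Igfbp4 had the largest fold change in either direction, and it was above zero. Igfbp4 binds both IGFs and is cut by the protease Pappa. Probe ILMN_1258988 read 7.01, 6.82 and 8.20 in WT and 9.59, 9.47 and 9.33 in KO. Every KO array was above every WT array, by 2.11 ± 0.42 (SE) on average or 4.33-fold, with a 95% interval of 1.09 to 3.14. The limma adjusted p was 0.0898, which missed the threshold. ILMN_2694955 gave 6.92, 6.74 and 5.47 in WT and 7.66, 7.85 and 9.54 in KO, a difference of 1.97 ± 0.65 (SE, adjusted p = 0.234, interval 0.40 to 3.55). WT array 3 was not above background there, so its mean includes a background reading. The 2 probes disagreed on which array was extreme, WT array 3 being the highest WT array on the first and the lowest on the second.

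Igfbp2, a fetal binding protein that also contacts integrins, read 8.82, 8.66 and 9.65 in WT and 7.29, 8.71 and 8.37 in KO. The groups overlapped, and the difference of -0.92 ± 0.48 (SE) had a limma adjusted p of 0.445 and an interval of -2.10 to 0.25. It was -0.51 without KO replicate 1, the lowest array. The other Igfbp2 probe was above background on 1 WT and 1 KO array. Igfbp3, the main IGF carrier of adult serum, read 7.47, 5.21 and 5.05 in WT and 5.98, 6.88 and 6.15 in KO on its brighter probe, which was above background on 1 WT and 2 KO arrays. Its other probe was above background on none. Neither Igfbp3 probe could be tested.

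**Figure D2:**
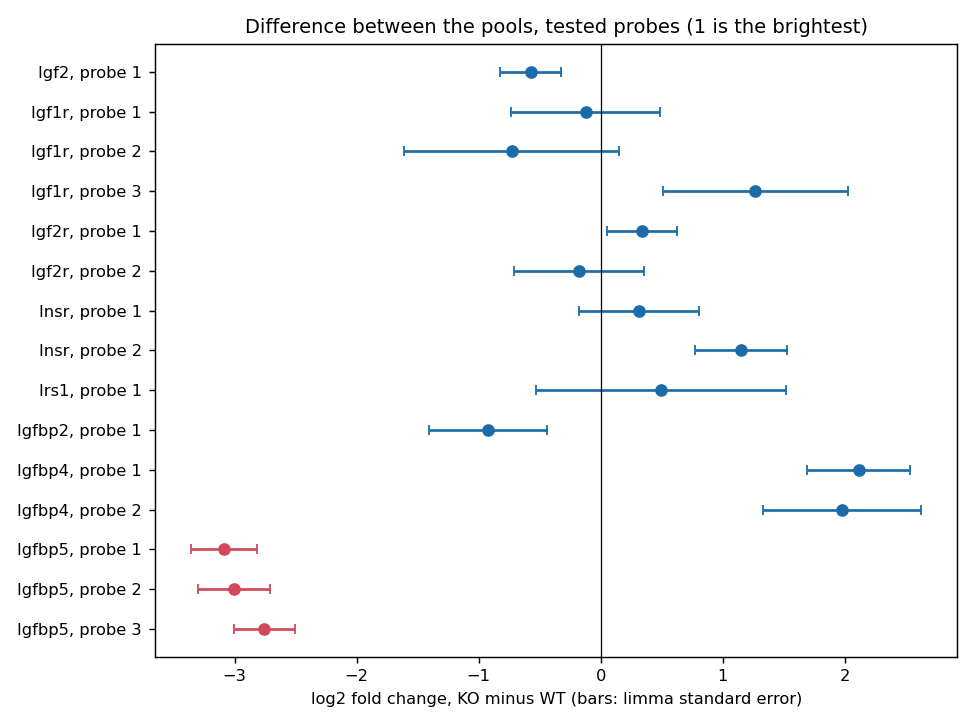
Log2 fold change, KO minus WT (x axis), for the 15 tested probes of the 8 measured genes (y axis). Points are fold changes and bars limma standard errors over 3 WT and 3 KO arrays, with the Igfbp5 probes, which chose the set, in red. The Igfbp5 probes lay at -3.09 to -2.76, the Igfbp4 probes at 2.11 and 1.97, and all others between -0.92 and 1.27.

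Igfbp2 and Igfbp5 are neighbours on mouse chromosome 1. In GRCm38.p6, Igfbp2 spans 72824480 to 72852474 and Igfbp5 72858065 to 72874865, on opposite strands, with 5590 bases between them. The pair is described side by side for that reason. Igfbp5 differed by -2.95 and Igfbp2 by -0.92, and only the Igfbp2 groups overlapped. Of the other coding genes within 500 kb, Xrcc5, a DNA end-joining gene, was the only one tested, at -0.42 ± 0.31 (SE, limma adjusted p = 0.599). Marchf4, Smarcal1, Ankar and Tnp1 had probes but none that could be tested, and Rpl37a had no probe. Igfbp4 lies apart from them on chromosome 11, at 99040005 to 99052655.

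Genes with the array pattern nearest to Igfbp5 were sought by the root mean square difference between centred log2 intensities over the 6 arrays, across 1 probe per tested gene. The nearest were Cd36 (0.165), Crygd (0.283), Sostdc1 (0.285), Cep70 (0.291) and Foxe3 (0.310). Pairs of single Igfbp5 probes differed from each other by 0.185 to 0.325. The genes were set against the mean of the Igfbp5 probes, so these ranges cannot be compared. Cd36 is a fatty acid scavenger receptor, Crygd a lens crystallin, Sostdc1 a secreted BMP and Wnt antagonist, Cep70 a centrosome protein and Foxe3 a forkhead factor of the lens. Sostdc1 was above background on all 6 arrays, at 10.03, 9.82 and 10.24 in WT and 7.83, 7.23 and 7.33 in KO. The other genes were above background on no KO array. Under the main processing, their mean WT signal was at least 3.72-fold higher for Cd36, 4.03-fold for Crygd, 6.35-fold for Cep70 and 3.24-fold for Foxe3. For these 4 genes the distances and their order rest on background readings. Their fitted fold changes moved with the processing, from -3.56 to -1.58 for Cd36, -3.79 to -1.82 for Crygd, -3.82 to -2.07 for Cep70 and -3.50 to -1.60 for Foxe3. The weakest change of each gene fell short of its bound, so the bounds hold for the main processing only. Sostdc1 lay between -2.79 and -2.16. Likeness carries no test.

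**Figure D3:**
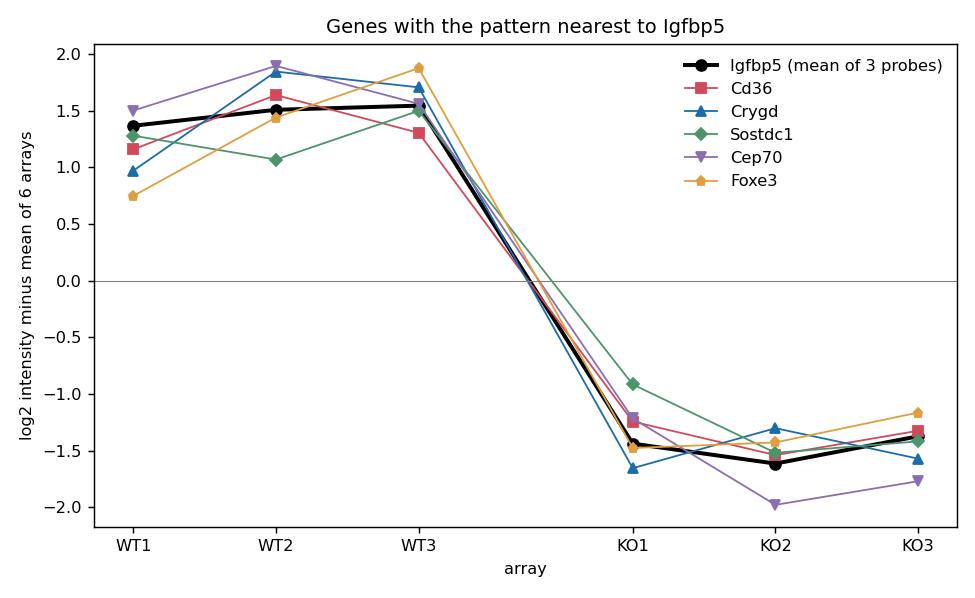
Log2 intensity minus the gene's mean over the 6 arrays (y axis) on each array (x axis), for the mean of the 3 Igfbp5 probes (black) and the 5 nearest genes (colours), 1 line per gene. All 6 lines are high on the WT arrays and low on the KO arrays, with distances from Igfbp5 of 0.165 to 0.310. The KO points of all genes but Igfbp5 and Sostdc1 are background readings.

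The rest of the pathway was read from lists of genes by role, each gene by its brightest tested probe. Of 9 proteases and inhibitors that act on binding proteins, 8 were on the array and 2 were measured. Both passed the filter on dim probes only through the KO arrays, which fixes the direction of what is seen. Stc1, a secreted inhibitor of Pappa, read 4.93, 4.91 and 5.45 in WT, above background on no array, and 8.21, 7.57 and 7.47 in KO. The KO signal was at least 3.0-fold higher, and the probe was called (limma adjusted p = 0.0359), though it could enter the test only as a gene higher in KO. The call was lost under 11 of 13 alternatives, among them each of the 6 arrays left out in turn (adjusted p 0.0938 to 0.123). Stc2, another inhibitor of Pappa, was above background on 1 WT array and gave a fitted 2.30 ± 0.54 over WT background readings (SE, adjusted p = 0.127). Pappa itself, Htra4, Adam12 and Adam28 were above background on no array.

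Matrix partners of Igfbp5 had 2 measured genes of 4 on the array, Tnc, which passed the filter only through the WT arrays, and Fn1. Tnc encodes the matrix glycoprotein tenascin C. Its brightest probe read 9.30, 8.78 and 8.5 in WT and 5.45, 6.48 and 6.39 in KO, where 2 of 3 arrays were above background. The fitted difference was -2.75 ± 0.40 (SE, limma adjusted p = 0.0489), and this probe was called lower. A second Tnc probe was also called, at -3.06 (adjusted p = 0.0335), and the remaining probe gave -2.30 (adjusted p = 0.118). Of the 7 tested probes of this list, 2 were called lower, against 0.425% of all tested probes. Nothing is read from that count, since the brightest Tnc probe entered the test only through WT. The brightest probe missed the threshold under all 13 alternatives (adjusted p 0.0515 to 0.209), including each array left out in turn (0.113 to 0.131). Fn1, fibronectin, gave -0.88 ± 0.27 (SE, adjusted p = 0.213), with its other probes at -0.97, -0.43 and -1.69. Vtn was above background on no array.

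Signalling genes inside the cell held 0 called probes, which says little at shares of 0.425% and 0.417% over the whole array. Of 20 PI3K, Akt and mTOR genes on the array 16 were measured, 11 with positive and 5 with negative fold changes and a median of 0.40. Pdpk1, the kinase that activates Akt, gave 1.62 ± 0.35 (SE, limma adjusted p = 0.108), and its second probe gave 1.33. Pik3r1, the regulatory subunit of PI3K, gave -1.07 ± 0.39 (adjusted p = 0.281), with other probes at -1.18 and -0.34. Of 12 receptor adaptors and inhibitors on the array, 7 were measured, 3 positive and 4 negative, with a median of -0.08. The phosphatase Ptpn1 gave 1.05 ± 0.33 (adjusted p = 0.216) and the Ras exchange factor Sos1 -0.99 ± 0.64 (adjusted p = 0.549). That Sos1 probe passed the filter only through WT. The other Sos1 probe, which passed only through KO, gave 0.18 (adjusted p = 0.836). Of 15 Foxo factors and targets, 9 were measured, with a median of 0.19. Txnip, which restrains thioredoxin, gave 1.83 ± 0.60 (adjusted p = 0.234), and the stress gene Gadd45a -0.83 ± 0.44 (adjusted p = 0.451).

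Igf2 mRNA binding proteins and the remaining IGF binding proteins held 0 called probes as well, again a small set beside 0.425% lower and 0.417% higher over the whole array. Igf2bp1 gave 0.41 ± 0.31 (SE, limma adjusted p = 0.620), and its 5 probes were all positive. For Igf2bp3 the brightest probe gave -0.05 (adjusted p = 0.958) and the others 0.98, -0.71 and -0.28. Igfbp7, a relative that binds IGFs weakly, gave 0.03 ± 0.32 (adjusted p = 0.976), with its other probes at -0.40 and -0.57. It was the only measured gene of 6 further ligands and binding proteins on the array. Ins2, Igfbp1, Igfbp6 and Igfbpl1 were above background on no array.

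**Figure D4:**
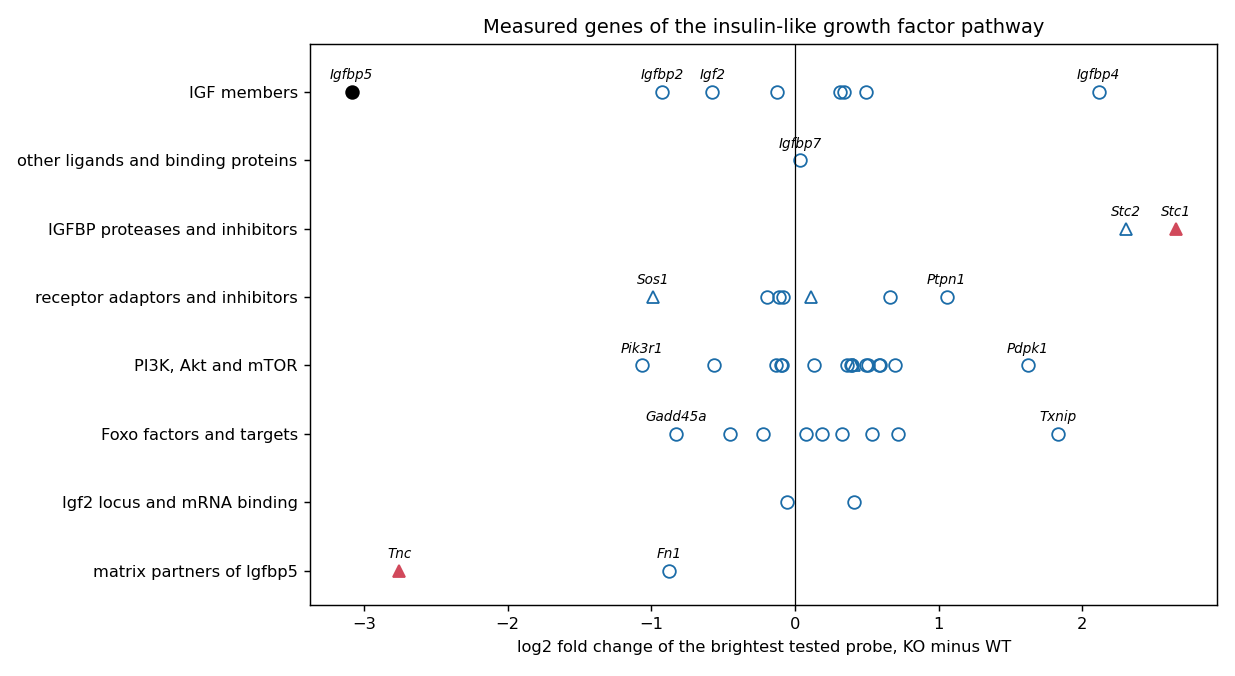
Log2 fold change, KO minus WT (x axis), of the brightest tested probe of each measured gene, by list (y axis). Black marks Igfbp5, which chose the set, red marks called genes and open points were not called. Triangles passed the filter through 1 genotype only, so their positions are fitted over background readings, as for Stc1 (a bound of at least 3.0-fold), Stc2 and Tnc. Among genes measured on all 6 arrays, Igfbp5 at -3.09 and Igfbp4 at 2.11 lay farthest out.

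Markers of cell types differed between the pools as well. Markers of the lens placode, the labelled WT tissue, were measured for 8 of 8 genes, 7 of them with a negative fold change and a median of -1.82, and 3 of the 8 passed the filter only through WT. Foxe3 and Pitx3 were called lower, as were 0.425% of all tested probes. Both were above background on no KO array, so they could enter the test only as genes lower in KO. Pax6 gave -0.20 (limma adjusted p = 0.814). The summed intensity of the 8 placode markers was 8005 to 8980 in WT and 4316 to 5222 in KO. Surface ectoderm markers were measured for 6 of 8 genes, with 6 negative and 0 positive fold changes, a median of -0.31, 0 calls and sums of 13100 to 15841 in WT and 10126 to 12362 in KO. The part of these markers in the Igfbp5 difference was not tested.

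Of 5 measured blood markers, 5 had a positive fold change, with a median of 1.39, and 0 were called. Their summed intensities were 5646 to 7433 in WT and 13642 to 14191 in KO, and 1 of the 5 had passed the filter only through KO. Mesenchyme and neural crest markers were mixed, with 3 of 7 measured genes negative and 4 positive. The 4 had passed the filter only through KO, and 1 of the 3 only through WT. Alx4 was called higher, by at least 10.7-fold, with no WT array above background. Sums were 2434 to 4094 in WT and 2335 to 2613 in KO. Twist1 and Sox10 were above background on no array. Of endothelial genes only Cldn5 was measured. It was above background on no WT array, and its KO signal was at least 6.43-fold higher (limma adjusted p = 0.0711). Pecam1, Cdh5 and Kdr were above background on no array. Of 5 optic vesicle markers on the array 2 were measured, Otx2 and Rax, both of which passed the filter only through KO and neither of which was called, with sums of 121 to 226 in WT and 168 to 454 in KO. Sox1 and Six6 were above background on no array, and none of 4 macrophage markers was measured. The part of these cells in the Igfbp4, Stc1 and Stc2 differences was not tested.

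How far each fold change moved with the processing is plotted for 4 members. Igfbp5 lay between -3.02 and -2.72 over all 14 alternatives, and its 3 probes stayed separated between the genotypes in each. Igfbp4 lay between 1.69 and 2.45, with both probes separated in each, and its brightest probe missed the threshold in each (adjusted p 0.0875 to 0.249). Igf2 lay between -0.71 and -0.50 and was separated in each, with an adjusted p of 0.295 to 0.587. Under the main processing, 21.6% of all tested probes were separated. Nothing is read from the separation of the Igfbp5 probes, which chose the set. The dimmer Igfbp4 probe had passed the filter only through KO.

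**Figure D5:**
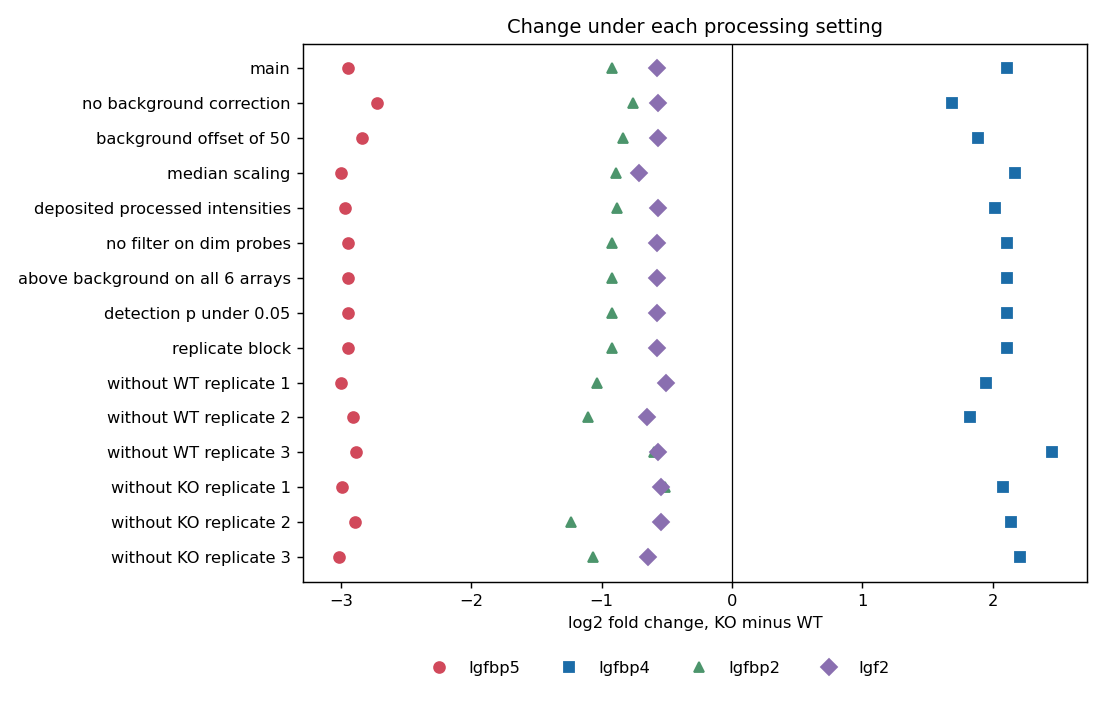
Log2 fold change, KO minus WT (x axis), under the main processing and 14 alternatives (y axis), for Igfbp5 (mean of 3 probes) and the brightest probes of Igfbp4, Igfbp2 and Igf2. Igfbp5 stayed at -3.02 to -2.72, Igfbp2 at -1.23 to -0.51, Igf2 at -0.71 to -0.50 and Igfbp4 at 1.69 to 2.45.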

How the data were processed

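Gene expression was measured on 6 Illumina MouseWG-6 v2 arrays (3 WT and 3 KO) on 1 BeadChip. The authors deposited, per array and probe, the scanner intensity on a linear scale before normalization, a detection p-value against negative control beads, the number of beads and their standard error. The deposited processed intensities came from GenomeStudio with cubic spline normalization by their methods. Ranks in each processed column matched those of its own array (Spearman 1), medians lay at 15.9 to 16.0, and 27.2% to 27.3% of entries were negative. The scale was therefore linear, background-subtracted and not centred, and this table served as an alternative.

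Analysis used R 4.3.3 and limma 3.58.1. Background was removed from intensities by normexp with an offset of 16, with control levels inferred through the detection p-values, and values were log2 transformed and quantile normalized. Tested probes (12697) had a detection p-value under 0.01 on every array of WT, of KO or of both. The test was lmFit with eBayes, two-sided, and Benjamini-Hochberg adjustment ran over all of them. GenomeStudio's own test was not run. The brightest tested probe stood for a gene. All 22 member probes matched a current gene by Entrez identifier, and 34885 probes of the array carried 1 symbol, 18 several and 10378 none. Raw median intensities were 85.6 to 141 in WT and 90.9 to 95.5 in KO. The number of arrays limits the precision for amplification spread only. With 1 pool per genotype, spread between embryos was not measured.

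The members, the gene lists and the naming rule (all members, called pathway genes, the 2 largest changes of each list, and the 5 patterns nearest to Igfbp5) were chosen with earlier results of these data known. Alternatives were another background correction or offset, median scaling, the processed intensities, other filters on dim probes, a replicate block and each array left out.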

Additional observations from a re-analysis of the deposited data

How the results depend on the processing

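The mean Igfbp5 fold change of -2.95 was -2.72 without background correction and -2.84 with an offset of 50. It kept its direction under all alternatives and lay between -3.02 and -2.88 with an array left out. The 54 probes called lower became 17 without background correction, 26 with an offset of 50, 29 under median scaling, 2 when a signal above background was required on all 6 arrays and 21 at a detection p-value under 0.05. The 53 called higher became 19, 27, 63, 0 and 24 under the same settings, 102 with the deposited processed values and 30 with no filter on dim probes. With an array left out, 0 probes were called lower and 0 to 1 higher, although 681 to 840 lower and 804 to 1193 higher had an unadjusted p under 0.05. The member probes called lower were then 0, and 2 of the 3 when signal was required on all 6 arrays. The cause was not tested in either case. Fewer arrays entered the fit only where an array was left out. The sign turned with an array left out for Igf1r (-0.63 to 0.45), Insr (-0.12 to 0.55), Irs1 (-0.60 to 1.18), Igfbp7 (-0.15 to 0.27) and Igf2bp3 (-0.23 to 0.078), none of which passed the test. Igf1 and Igfbp3 were too dim for any comparison.

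Arrays with the same number did not deviate together (correlations of -0.013, 0.0013 and -0.026 across probes), so the replicate number is no pairing. With it as a block, 0 probes were called lower and 0 higher, and 0 member probes were called, with 772 lower and 1042 higher at an unadjusted p under 0.05.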

Other observations

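Other genes that carry an IGFBP domain were looked at after their values were seen. Of 9 such genes on the array, 4 had tested probes, 6 in all, and 0 were called by limma, a count that says little at shares of 0.425% lower and 0.417% higher over the whole array. Ccn4, a matricellular Wnt target, read 4.72, 4.97 and 5.91 in WT, above background on 1 array, and 7.51, 8.59 and 7.47 in KO. The fitted difference was 2.65 ± 0.48 (SE, limma adjusted p = 0.0744), and the probe passed the filter only through KO. The other Ccn4 probe, above background on 1 KO array and no WT array, could not be tested. Both tested probes of Ccn1, an immediate early matricellular gene, passed the filter only through KO. Each was higher on every KO array than on any WT array, as were 11.3% of all tested probes. The brighter one, above background on 2 WT arrays, gave a fitted 1.87 (adjusted p = 0.329). The other, above background on no WT array, was at least 1.69-fold higher in KO (adjusted p = 0.0889). Ccn2 gave -1.43 (adjusted p = 0.417) with WT values of 7.94, 10.05 and 10.61. Crim1 gave 0.11 (adjusted p = 0.926) on its brighter probe and -0.82 (adjusted p = 0.261) on the other.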
